A study of Mus musculus with 9 samples.

Results

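The genes described here are 10 immediate early genes of the AP-1 and Egr type, Fos, Fosb, Fosl2, Jun, Junb, Jund, Egr1, Egr2, Ier2 and Atf3. They were chosen by name and looked up by Ensembl identifier among the 39179 genes listed for every library, and all 10 were found. The libraries came from capillaries, with the cells around them, cut by laser from the ossification front of the femur, the zone beneath the growth plate where new bone is laid down. Juvenile mice were 4 weeks old (n = 5) and adult mice were 12 weeks old (n = 4), and both ages carried the Tg(TIE2GFP)287Sato/J transgene, in which the Tie2 promoter drives GFP in endothelium, with C57BL/6 given as their origin. The labels name no treatment. Each library held pooled pieces of 1 sample, so that osteoblasts, osteoclasts and marrow cells lying beside the vessel were sequenced with it. The labels describe the juvenile mice as actively growing and the adult mice as mature, and the ages were compared to find what differs around these capillaries.

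Immediate early genes are transcribed within minutes of a stimulus, without a need for new protein, and their transcripts are short-lived. Fos and Jun family proteins pair through leucine zippers to form AP-1, which binds DNA at a short palindrome, while Egr proteins bind GC-rich sites through zinc fingers. In bone, loss of Fos blocks the formation of osteoclasts, Fosl2 acts in both osteoblasts and osteoclasts, and several of the genes respond to mechanical load, growth factors and the handling of tissue. Expression is read both as a property of a cell type and as a trace of recent events.

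The deposited values were whole-number read counts, with totals from 4856833 to 8077362 per library. Normalized counts given here were scaled to a common library size by TMM. Of the 10 genes, 8 passed the filter on low counts, and Fosb and Egr2 did not. With the edgeR quasi-likelihood test, 0 of the 8 had an adjusted p under 0.05, beside 3.88% of the 13418 genes tested. At an unadjusted p under 0.05 there were 3 of the 8 (Fos, Fosl2 and Jund), beside 17.3% of all genes. DESeq2 called 2 of the 9 to which it gave an adjusted p, Fos and Fosl2, beside 9.61% of all genes it tested, and limma voom called 1 of the 8, Fosl2, beside 3.43% of all genes. The median log2 fold change of juvenile over adult was 0.02 in the 8 genes and -0.01 in all genes tested.

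**Figure D1:**
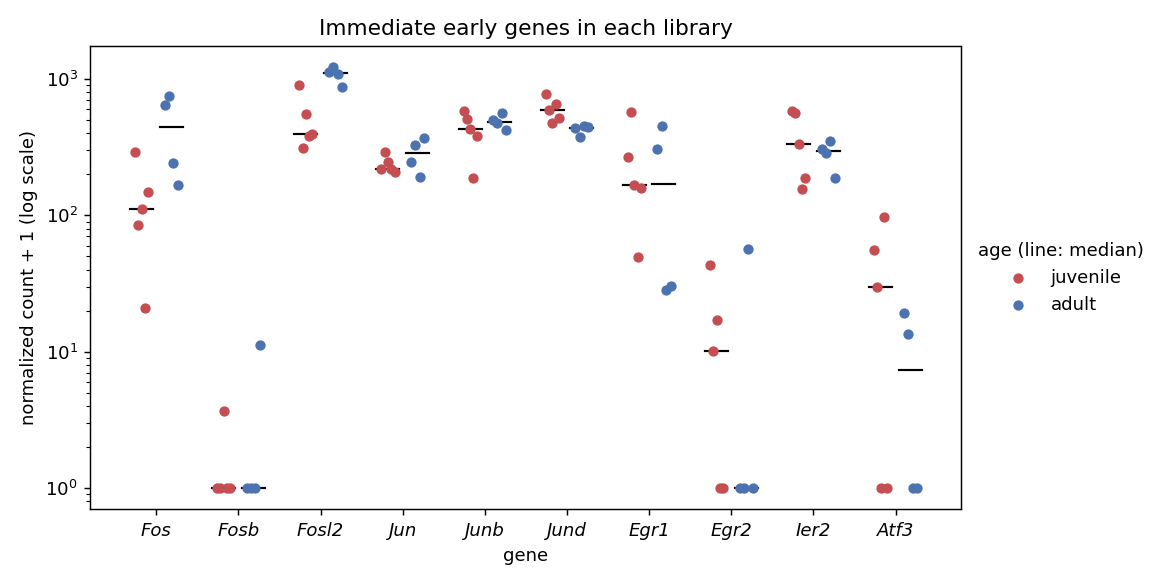
Normalized count plus 1 on a log axis for the 10 genes in the 5 juvenile (red) and 4 adult (blue) libraries, 1 point per library, with a line at the median of each age. For Jund the ages do not overlap; Fos spreads from 20.0 to 744 over the 9 libraries.

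Fos encodes the founding member of its family, a partner of Jun proteins that cannot bind DNA on its own. In juvenile replicates 1 to 5 it had 289, 84.1, 109.5, 20.0 and 148 normalized counts, and in adult replicates 1 to 4 it had 641, 744, 241 and 165. The adult libraries fell into a high pair and a low pair, and the ages overlapped because juvenile replicate 1 lay above adult replicates 3 and 4. Juvenile mice had a mean of 130.1 ± 100.3 (SD, n = 5), and the mean of the adults was 448 ± 287 (SD, n = 4). The edgeR log2 fold change of juvenile over adult was -1.78 ± 0.61 (SE), with an adjusted p of 0.134, so that a mean 3.44 times as high in adults did not pass the test over all genes. A two-sided exact permutation test over all 126 assignments of libraries to ages gave p = 0.0635. In these mixed samples, fewer cells of a type and less RNA per cell cannot be told apart.

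Fosl2, also called Fra-2, lacks the strong activation domain of Fos and is known for driving collagen and osteocalcin expression in osteoblasts. Juvenile replicates 1 to 5 had 906, 311, 554, 382 and 394 normalized counts, and adult replicates 1 to 4 had 1128, 1220.1, 1089 and 867. Every adult library lay above 4 of the 5 juvenile libraries, and juvenile replicate 1 alone reached into the adult range, between adult replicates 4 and 3. The log2 fold change was -1.08 ± 0.28 (SE), 2.11 times as high in adults, with an adjusted p of 0.0543 in edgeR and an exact permutation p of 0.0238. Without juvenile replicate 1 it was -1.39 and the adjusted p in edgeR was 0.00869. Over the 20 alternatives the adjusted p ran from 0.00764 with DESeq2 to 0.326 in the 7 libraries rich in Xist, and 5 of them called the gene.

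Fosb, known from neurons and osteoblasts for long-lived splice forms, was close to absent. It had 2 counts in juvenile replicate 3, 13 counts in adult replicate 4 and 0 in the other 7 libraries. Without the filter on low counts its log2 fold change was -2.10 ± 1.88 (SE; adjusted p = 0.566 in edgeR). No difference was detectable at this depth.

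The Jun family supplies the partners that AP-1 needs for binding DNA. Jun, the strongest activator of the family, had 217, 288, 243, 218 and 208 normalized counts in juvenile replicates 1 to 5 and 244, 326, 191 and 366 in adult replicates 1 to 4. Its ages overlapped widely, and the log2 fold change was -0.26 ± 0.27 (SE; adjusted p = 0.713 in edgeR). Junb, which often opposes Jun in proliferation and is required for osteoblast and osteoclast growth, had 584, 509, 429, 186 and 379 normalized counts in juvenile and 494, 472, 564 and 424 in adult libraries. All adult libraries lay within the juvenile range, and juvenile replicate 4 was the lowest of the 9. The log2 fold change of Junb was -0.23 ± 0.29 (SE; adjusted p = 0.782 in edgeR).

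Jund, the least inducible Jun gene and often a brake on growth, was the 1 gene of the 8 tested whose ages did not overlap, beside 9.15% of all genes tested. Juvenile replicates 1 to 5 had 769, 587, 474, 650.4 and 512 normalized counts, and adult replicates 1 to 4 had 432, 375, 448 and 439.6. The lowest juvenile library, replicate 3, was close to the highest adult library, also replicate 3. Jund had a log2 fold change of 0.50 ± 0.20 (SE), with an adjusted p of 0.214 in edgeR and an exact permutation p of 0.0159, and no alternative called it. Jund is a single-exon gene at chr8:70698949-70700616 on the plus strand of GRCm38, and 52.6% of its exon length is shared with an antisense transcript, Gm11175, which had 95 to 192 counts. The library kit does not mark strand, so reads of the pair over the shared stretch cannot be told apart.

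Smaller overlaps touch the other Jun genes. Jun shares 7.28% of its exon length with the antisense transcript Junos, which had 10 to 45 counts. Junb shares 7.52% with Prdx2 on the opposite strand, an abundant peroxiredoxin gene with 1248 to 5442 counts.

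Egr1 is a zinc finger factor induced by growth factors and strain. Of the genes of the 10 with counts in every library, it had the largest SD of log2 CPM within ages. Among juvenile mice the range in counts was also wider for Egr1. As a ratio of the highest to the lowest library, Fos had the wider range over all 9 libraries and among juvenile mice (14.4 beside 11.7). In juvenile mice alone the SD of log2 CPM was also larger for Fos, at 1.37 beside 1.28 for Egr1. Juvenile replicates 1 to 5 had 269, 566, 166, 48.3 and 157 normalized counts, and adult replicates 1 to 4 had 305, 448, 27.2 and 29.1. As with Fos, adult replicates 1 and 2 were high and adult replicates 3 and 4 low, and the adult libraries enclosed all but the highest juvenile library. The ratio of the highest to the lowest library was 11.7 in juvenile and 16.5 in adult mice. Juvenile over adult, the log2 fold change was 0.26 ± 0.81 (SE; adjusted p = 0.930 in edgeR), and its sign turned when 1 of 3 libraries was left out: it was -0.34 without juvenile replicate 2, -0.13 without adult replicate 3 and -0.12 without adult replicate 4.

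Egr2, a related factor known from myelin and from the response of lymphocytes, had counts in 4 libraries: 37, 10 and 12 in juvenile replicates 1 to 3, and 72 in adult replicate 3. The other 5 libraries had 0. Egr2 did not pass the filter on low counts. Without that filter its log2 fold change was -0.07 ± 1.83 (SE), with an adjusted p of 0.994 in edgeR and 0.995 in DESeq2. The sign turned in the 7 libraries rich in Xist, at 0.67 ± 1.93 (SE). The estimate was -0.49, -0.48 and -0.48 without adult replicate 1, 2 and 4, each left out singly.

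Ier2, a small nuclear protein induced together with Fos in many cells, had 583, 559, 329.9, 156 and 188 normalized counts in juvenile replicates 1 to 5 and 303, 284, 351 and 188 in adult replicates 1 to 4. The ages overlapped, and the juvenile libraries fell both above and below the adult range, at a log2 fold change of 0.37 ± 0.40 (SE; adjusted p = 0.727 in edgeR). Atf3, a stress-induced factor that pairs with Jun proteins, had 48, 32, 0, 82 and 0 counts in juvenile and 25, 12, 0 and 0 counts in adult libraries. It was present or absent within each age, and its log2 fold change of 2.22 ± 1.68 (SE; adjusted p = 0.580 in edgeR) was smaller than the spread of its libraries. Left out singly, juvenile replicate 4 moved it to 1.44 and adult replicate 1 to 3.10, and it was not called.

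Levels were compared between genes as counts per kilobase of exon, corrected for library size (the RPKM scale). In juvenile libraries Jund was highest with 57.2 ± 11.2 (SD, n = 5), followed by Ier2 with 38.0 ± 21.03 and Junb with 28.9 ± 10.5. Jun (11.7 ± 1.63), Fos (8.81 ± 6.79), Egr1 (8.57 ± 7.02) and Fosl2 (8.38 ± 3.93) followed and did not differ beyond their spread. The order of Jund, Ier2 and Junb did not hold in every juvenile library. Ier2 (58.5) lay above Jund (56.0) in juvenile replicate 2, and Junb (26.3) above Ier2 (19.6) in juvenile replicate 5. In adult libraries Jund had 40.5 ± 3.15 (SD, n = 4), Junb 33.8 ± 4.03, Fos 30.3 ± 19.5 and Ier2 29.5 ± 7.16, and Jund, Junb and Ier2 stood in this order in all 4 adult libraries. The place of Fos differed between libraries, above Jund in adult replicates 1 and 2 and below Ier2 in adult replicates 3 and 4. Fosl2 with 17.7 ± 2.47, Jun with 14.1 ± 3.95 and Egr1 with 7.19 ± 7.44 came next. Atf3, Egr2 and Fosb were lowest in both ages, with means of 2.67, 0.630 and 0.0136 in juvenile and 0.568, 0.655 and 0.0652 in adult libraries.

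Spread within an age separated the genes. The SD of log2 CPM within ages was 1.25 for Fos and 1.68 for Egr1, larger than in 98.2% and 98.7% of the genes whose mean count was within 1.5-fold of theirs. For Jun it was 0.31 and for Jund 0.22, larger than in 8.57% and 6.78% of such genes. Of the 7 among the 10 immediate early genes with counts in every library, Fos and Egr1 were the most uneven and Jun and Jund the most even.

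To ask whether the genes varied together, each library was expressed as its deviation from the mean of its age on the log2 CPM scale. Juvenile replicate 4 was the lowest juvenile library for Fos (-2.16), Egr1 (-1.86), Junb (-1.06) and Ier2 (-1.01). Juvenile replicate 1 was the highest juvenile library for Fos (1.57), Fosl2 (0.94), Junb (0.58), Ier2 (0.88) and Jund (0.38). In adults, Fos and Egr1 were high in replicates 1 and 2 and low in replicates 3 and 4, whereas Junb stayed within -0.20 and 0.21.

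**Figure D2:**
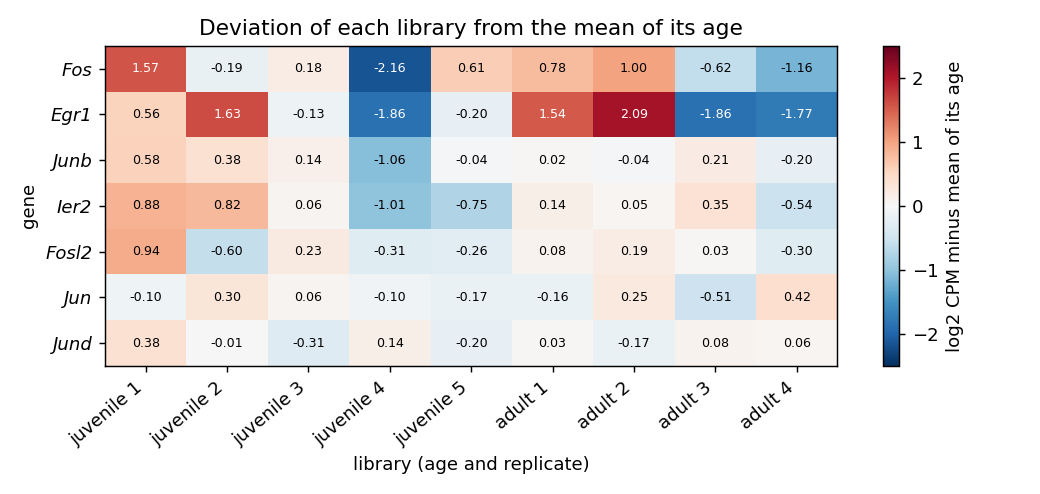
Deviation of log2 CPM from the mean of the age (color and number) for 7 genes in the 9 libraries. Juvenile replicate 4 is low for Fos, Egr1, Junb and Ier2, and adult replicates 3 and 4 are low for Fos and Egr1.

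All 45 pairs of the 10 genes were compared over the 9 libraries, with exact permutation of values within each age (2880 arrangements) and Benjamini-Hochberg adjustment over the 45 pairs. One pair passed. Junb and Ier2 had a Pearson's r of 0.869 (exact permutation p = 0.000347, adjusted p = 0.0156) and a Spearman's rho of 0.933 (exact permutation p = 0.000694, adjusted p = 0.0312). The first p is the smallest that these arrangements can give. Among the 13417 other genes tested, Ier2 ranked 46 in likeness to Junb, and Junb ranked 50 in likeness to Ier2. Other genes outside the 10 were thus more like each of them. Without the 2 libraries whose Junb was farthest from the median, juvenile replicates 4 and 1, r was 0.946 (exact permutation p = 0.0208, adjusted p = 0.703), and without centring by age it was 0.753 (exact permutation, adjusted p = 0.0757), so that the call was lost both times. With any 1 library left out r was 0.824 to 0.955, and the adjusted p of 0.0625 to 0.750 by exact permutation was above the threshold each time. With libraries left out there are too few arrangements for a single pair to pass. The deviations remove age and nothing else. Juvenile replicates 4 and 5, which had more Y-linked than Xist counts, were the lowest juvenile libraries for both genes. The correlation was not computed without both of these libraries, so a part of sex in it was not tested. Both genes lie on chromosome 8, 311631 bases apart, with Ier2 at chr8:84661331-84662852 and Junb at chr8:84974484-84978718, both on the minus strand of GRCm38. Jund lies on chromosome 8 as well, but much farther from both, at chr8:70698949-70700616. It had r = 0.065 with Junb and 0.287 with Ier2. Whether position plays a part was not tested.

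Among the tested genes of the 10, Fos was most like Egr1 by Pearson's r and most like Fosl2 by Spearman's rho and, without centring by age, by r (0.820, beside 0.375 with Egr1). Fos and Egr1 had r = 0.745 (exact permutation p = 0.0372) and rho = 0.733 (exact permutation p = 0.0521), and the adjusted p values were 0.418 and 0.469. Without juvenile replicates 4 and 1, the libraries with the most distant Fos, r was 0.768. Fos and Junb had r = 0.740 (exact permutation p = 0.0601, adjusted p = 0.541) and rho = 0.450 (exact permutation p = 0.250, adjusted p = 0.923). Without those 2 libraries r was -0.12, so that this relation rested on them. Left out singly, juvenile replicate 4 moved r of Fos and Junb to 0.266 and juvenile replicate 1 to 0.647. The highest r with 1 library left out was 0.814. The relation of Fos and Ier2 rested on the 2 libraries as well, with r = -0.02 without them. Over 9 libraries they had r = 0.575 (exact permutation p = 0.160, adjusted p = 0.716) and rho = 0.450 (exact permutation p = 0.276, adjusted p = 0.923). With 1 library left out, r of Fos and Ier2 ran from 0.240 (without juvenile replicate 4) to 0.762 (without juvenile replicate 5). It was 0.410 without juvenile replicate 1. Fos and Fosl2 had r = 0.652 (exact permutation p = 0.111, adjusted p = 0.643) and rho = 0.750 (exact permutation p = 0.0236, adjusted p = 0.281), and r was 0.534 without the 2 libraries.

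**Figure D3:**
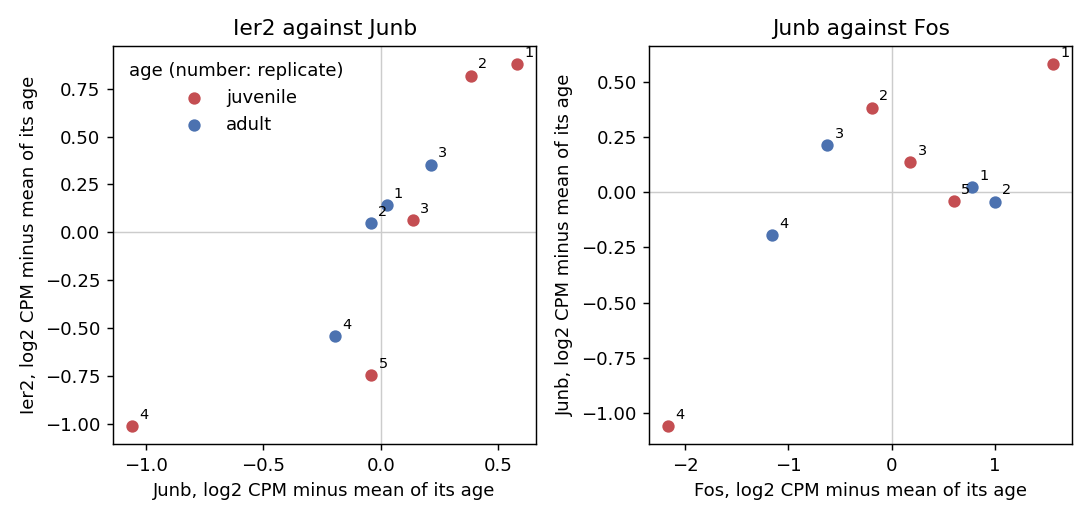
Deviation of log2 CPM from the mean of the age, for Ier2 against Junb (left) and Junb against Fos (right), with 1 numbered point per juvenile (red) or adult (blue) library. On the left the genes rise together (r = 0.869), with juvenile replicate 5 set off (Junb -0.04, Ier2 -0.75). The adult libraries lie close together there, within -0.20 and 0.21 in Junb. On the right juvenile replicates 1 and 4 stand at the ends and the other 7 show no common slope (r = -0.12).

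Jun, Jund and Atf3 had r of -0.05, -0.08 and 0.01 with Fos over the 9 libraries, and these values hung on single libraries. For Jund r was -0.79 without juvenile replicate 1, 0.183 without juvenile replicate 4, -0.59 without both and -0.54 without centring by age. For Atf3 it was 0.617 without juvenile replicate 4, -0.22 without juvenile replicate 1 and 0.458 without both. For Jun it was -0.31 without adult replicate 3, 0.256 without adult replicate 4 and 0.215 without centring by age. Among the 13417 other genes tested, Egr1 ranked 225 and Junb 234 in likeness to Fos, Fosl2 ranked 479 and Ier2 831, while Atf3, Jun and Jund ranked 6235, 6971 and 7266. The middle of all genes was at r = -0.03, and 5% lay above 0.605. This ranking is a description, since the 9 libraries are shared by all genes. Of the genes with a mean of at least 50 normalized counts, the 5 most like Fos were Gab1, a docking protein of growth factor receptors (r = 0.959), Uchl3, a deubiquitinating enzyme (0.939), Leprot (0.930), the mitochondrial carrier Slc25a40 (0.926) and Tln2, a talin that links integrins to actin (0.924). Gab1 had 545, 261, 347, 167 and 315 normalized counts in juvenile replicates 1 to 5 and 391, 401, 287 and 257 in adult replicates 1 to 4. As with Fos, juvenile replicate 4 was the lowest and replicate 1 the highest juvenile library, and the adult libraries stood in the same order. Gab1 was picked for its r with Fos, so a like order follows from the choice.

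The stretch before the start of transcription is shown for Fos and Junb, which had high r with Egr1 and Ier2. RefSeq promoter windows of GRCm38.p6 were found for 8 of the 10 genes and not for Egr1 and Ier2. The 250 bases before the start were searched on both strands for TGACGT, the core of the cAMP response element, which 6.47% of 32851 windows hold, and for TATAAA, which 12.4% hold. Egr2 had 5 windows, for different starts, and the other genes 1 each, so a count of genes does not compare directly with a share of windows. TGACGT was found in the windows of Fos and Atf3 and in 3 of the 5 of Egr2, and TATAAA in that of Fos. Within the 250 bases, the CArG box, bound by serum response factor, was found in 4 of the 5 windows of Egr2. It was in no window of the other 7 genes, and in 1.47% of all windows. Windows of different starts of Egr2 can overlap and hold the same site, and sequence farther upstream was not searched in any gene. TGACTCA, the AP-1 site, was in no window of the 8 genes and in 4.46% of all windows. The 120 bases before the start follow for chr12:85473770-85473889 (plus strand) and chr8:84978749-84978868 (minus strand), with TGACGT and TATAAA in capitals; neither was found in the window of Junb.
Fos: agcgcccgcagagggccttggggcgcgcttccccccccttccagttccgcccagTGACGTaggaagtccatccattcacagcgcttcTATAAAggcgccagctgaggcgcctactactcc
Junb: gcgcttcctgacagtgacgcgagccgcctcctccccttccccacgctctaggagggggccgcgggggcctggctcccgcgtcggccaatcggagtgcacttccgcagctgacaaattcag

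Other factors of the same families were followed as a list of 17 genes, of which 14 were tested, and edgeR called 1 in each direction, DESeq2 4 in all and limma voom 1. Maf, a large AP-1-type factor of macrophages and other cells, had 998, 567, 572, 617 and 527 normalized counts in juvenile replicates 1 to 5 and 1587, 1481, 1217 and 1531 in adult replicates 1 to 4. All adult libraries lay above all juvenile libraries, with a log2 fold change of -1.15 ± 0.21 (SE; adjusted p = 0.0116 in edgeR). Atf4, which drives amino acid uptake and matrix synthesis in osteoblasts, had 2000.3, 1685, 2305, 2206 and 1893 in juvenile and 1286, 1209, 1364 and 1388 in adult libraries. It was higher in every juvenile library, with a log2 fold change of 0.62 ± 0.15 (SE; adjusted p = 0.0398 in edgeR). The call of Atf4 was lost with any 1 library left out except juvenile replicate 2, at adjusted p values up to 0.103.

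Of 54 other immediate early genes, 50 were tested, with a median log2 fold change of -0.11. EdgeR called 1, with 6 at an unadjusted p under 0.05, DESeq2 called 6 and limma voom 1. The gene called in edgeR was Nfkbia, the inhibitor of NF-kappaB that is itself induced by it, which rose to a mean of 2111 ± 490.3 (SD, n = 4) normalized counts in adults, from 1012 ± 259 (SD, n = 5) at the younger age. Its log2 fold change was -1.06 ± 0.22 (SE; adjusted p = 0.0185 in edgeR), and the lowest adult library (1445) lay just above the highest juvenile library (1444). Without juvenile replicate 4 or 5 it was not called, at adjusted p values up to 0.0546 in edgeR. The median r of the 50 genes with Fos was 0.102, beside -0.03 for all genes tested.

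Upstream kinases and serum response factors gave 0 calls among 24 tested genes of 25 in edgeR, 1 at an unadjusted p under 0.05, 1 in DESeq2 and 0 in limma voom, with a median log2 fold change of 0.12. Of 14 heat shock genes, followed because they respond to the handling of tissue, 12 were tested. EdgeR called 1, DESeq2 3 and limma voom 1. The call in edgeR was the mitochondrial chaperonin gene Hspe1, with a log2 fold change of -1.05 ± 0.21 (SE; adjusted p = 0.0158 in edgeR). The median was -0.29. The median r of the heat shock genes with Fos was -0.15.

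Genes known as targets of AP-1 or Egr1 moved in both directions. Of 20, 17 were tested, of which 3 were called for the juvenile and 2 for the adult age, and the median log2 fold change was 0.15. DESeq2 and limma voom called 5 each. Higher in juvenile mice were Col1a2 (log2 fold change 1.25), Timp1 (1.96), an inhibitor of matrix proteases, and Pdgfa (1.12), a growth factor for mesenchymal cells. Higher in adult mice were Acp5 (-0.88) and Nfatc1 (-1.07), both of the osteoclast, where Nfatc1 lies downstream of Fos. The adjusted p values of the 5 ran from 0.00109 to 0.0142 in edgeR.

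Marker genes of other cells moved with age, and their part in the values of Fos and Fosl2 was not tested. Of 10 neutrophil genes, 9 were tested. All 9 had estimates higher in adults, and 8 were called in edgeR, 8 in DESeq2 and 2 in limma voom. The summed normalized counts of the list were 37.5 to 410.0 in juvenile libraries and 27818, 585, 22196 and 22350 in adult replicates 1 to 4, with S100a8 the most abundant. Adult replicate 2, with the fewest neutrophil counts of the adults, had the highest Fos and the highest Fosl2 of all libraries. All 10 erythroid genes were tested and had estimates higher in adults, and 9 were called in edgeR, 9 in DESeq2 and 6 in limma voom. Hbb-bs was the most abundant, and the list had sums of 2210 to 15281 in juvenile and 45428, 27683, 64778 and 216028 in adult libraries. No marker of either list was at 0 in all libraries.

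The osteoclast list had estimates higher in adults for 5 of 8 genes, and edgeR called 3 of these (Acp5, Nfatc1 and Atp6v0d2), as many as DESeq2 and limma voom. The call of Atp6v0d2 was lost with any 1 library left out except juvenile replicate 1, at adjusted p values up to 0.102 in edgeR. The list had sums of 105327, 133275, 97442, 81620.2 and 85039 in juvenile replicates 1 to 5 and 144534, 148024, 162476 and 104659 in adult replicates 1 to 4, and Acp5 was the most abundant gene. Of 9 macrophage genes 8 had estimates higher in adults, and 7 had an unadjusted p under 0.05, of which Mertk had its estimate higher in juvenile mice (log2 fold change 1.07). EdgeR called 2, both higher in adults, beside 3 in DESeq2 and 2 in limma voom. The macrophage list had sums of 3507 to 5402 in juvenile and 6987 to 11658 in adult libraries, and Csf1r was the most abundant. Endothelial genes, which mark the cells that were aimed at, were present in every library with sums of 2374 to 4226 in juvenile and 2910 to 4193 in adult mice, and 0 of 9 were called in edgeR, DESeq2 or limma voom, or had an unadjusted p under 0.05 in edgeR. Their median r with Fos was 0.515, beside 0.557 for the chondrocyte genes, the highest of the marker lists, 0.520 for the osteoclast genes and -0.55 for the neutrophil genes, the lowest. The lowest endothelial sum was that of juvenile replicate 4, which was also lowest in Fos.

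The chondrocyte sum was 28664 in adult replicate 2, the library with the highest Fos, and 3743 to 6385 in the other adult libraries, beside 2273 to 6184 in juvenile libraries; 5 of 6 tested genes had estimates higher in adults, 2 were called in edgeR, 2 in DESeq2 and 1 in limma voom, and Col2a1 was the most abundant. The edgeR calls were Col2a1 and Comp, and Comp was not called without adult replicate 2 or any 1 juvenile library, at adjusted p values up to 0.145 in edgeR and log2 fold changes of -5.44 to -2.59 over all libraries left out singly. Of 9 osteoblast genes edgeR called 4 as higher in juvenile (Col1a1, Ibsp, Ifitm5 and Sp7) and 2 as higher in adult mice (Bglap and Bglap2), and DESeq2 and limma voom called 7 each. In edgeR, Sp7 was not called without juvenile replicate 3, 4 or 5 or adult replicate 3 or 4, at adjusted p values up to 0.0734, and Ifitm5 was not called without juvenile replicate 3 or 4, at up to 0.0525. Mitochondrial transcripts took 2.96% to 4.73% of the counts in juvenile and 4.21% to 6.97% in adult libraries, with the highest share in adult replicate 2. Juvenile replicates 4 and 5 had more Y-linked than Xist counts and the other 7 libraries the reverse; in those 7 libraries the log2 fold change was -1.47 for Fos and -0.86 for Fosl2, and neither was called.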

How the data were processed

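RNA of each laser-cut sample was amplified with the Smart-Seq v4 kit and tagmented with Nextera XT. Per the submitters' processing notes the authors used TopHat2, Bowtie2 and featureCounts with GRCm38 (mm10), and deposited raw counts per Ensembl gene without normalization; versions and the strand setting are not given in the sources used here. Symbols and positions came from GENCODE M21, which held 96.2% of the 39179 identifiers.

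The ages were compared with edgeR 4.0.16 in R 4.3.3 (filterByExpr, TMM, estimateDisp, glmQLFit, glmQLFTest), without covariates and with Benjamini-Hochberg adjustment over the 13418 tested genes. A gene was called at an adjusted p under 0.05. The SE is the log2 fold change divided by the square root of F. Log2 CPM used a prior count of 2. Library totals of 4856833 to 8077362 counts limit precision, and the p-values of the age comparison set the difference against the spread between the samples. Correlations used deviations from the mean of the age. The code was tested on simulated counts. Of 100 genes changed by a log2 fold of 1, edgeR called 5, DESeq2 21 and limma voom 7. Of 100 changed by a log2 fold of 2, they called 46, 65 and 40. False calls were 1 of 52 in edgeR, 31 of 117 in DESeq2 and 0 of 47 in limma voom.

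Alternatives were DESeq2 1.42.0, limma 3.58.1 (voom with sample weights), other scalings and filters, thinned counts, a replicate block, gene classes removed, the Xist-rich libraries, and each library left out; for correlations, other prior counts, scaling, ranks, no centring and fewer libraries. Fosb and Egr2 entered the correlations although they did not pass the filter.

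Named genes were all 10 immediate early genes, up to 6 called genes per list in order of adjusted p, the most abundant gene of marker lists, and the 5 genes most like Fos; of the marker genes this rule gives, a part is named. Lists covered related factors, other immediate early genes, kinases, heat shock genes, AP-1 and Egr targets, and markers of 13 cell types. Of the marker lists not described in the report, megakaryocyte (1 of 3 tested) and T and NK cell genes (1 of 2) had 1 call each, higher in adults, with 2 each in DESeq2 and 0 and 1 in limma voom; adipogenic stroma had 1 each way of 6 and 2 in all with either other tool; B cell (6 tested) and pericyte genes (6 tested) had 0 calls in edgeR, with 2 and 3 at an unadjusted p under 0.05, 2 and 1 in DESeq2 and 0 and 1 in limma voom; and 0 of 5 skeletal muscle genes could be tested. The members and lists were chosen with earlier results of these data known. Python 3 with numpy, pandas and scipy was used for the rest.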

Additional observations from a re-analysis of the deposited data

Results flagged for a closer look

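The libraries of each age were examined for 1 that stands far from the others, in 92 groups of values, and 17 were found; chance gives about 1 in 20 for values with a continuous spread. In 5 of the 17 only 1 library had any counts, so that the gap was fixed by the zeros, and that rate does not hold for such low counts. Fosb stood out in juvenile replicate 3 (2.67 normalized counts) and adult replicate 4 (10.2) and Egr2 in adult replicate 3 (55.9), each against 0 in all other libraries of the age. Maf was high in juvenile replicate 1, at 998 against 527 to 617, the library that was also highest for Fos and Fosl2 among juvenile mice. Hspe1 was high in juvenile replicate 3 (829 against 526 to 611).

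Among target and osteoclast genes, Pdgfa was high in adult replicate 1 (1234 against 985 to 1025) and Atp6v0d2 low in adult replicate 4 (1739 against 2090 to 2120). Adult replicate 2 was high for Col2a1 (19566 against 3316 to 5440) and Comp (3037 against 37.0 to 353), and low for S100a8 (169 against 7374 to 8480) and S100a9 (162 against 6315 to 7042). Hba-a1 was high in adult replicate 4 (77666 against 5364 to 17211). Juvenile replicate 4 had the most S100a8 (106 against 0 to 22.7), Ngp (80.1 against 0) and Ltf (1.18 against 0, a single count) of its age, and juvenile replicate 2 the most Elane (25.3 against 0 to 2.36) and Nkg7 (13.6 against 0 to 2.28).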

How the results depend on the processing

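The number of genes called was 520, and it was 1492 with DESeq2, 89 with a replicate block and 73 in the Xist-rich libraries; with 1 library left out it ran from 262 to 651. Fewer libraries entered the last of these fits. Same-numbered libraries of the ages are different mice, and over 13418 genes their deviations correlated between -0.03 and 0.03. The mean deviation of the 8 immediate early genes was 0.85, 0.43, -0.33, -0.45 and -0.49 in juvenile replicates 1 to 5. In adult replicates 1 to 4 it was 0.53, 0.59, -0.49 and -0.63. Replicates 1 and 2 were thus high and later ones low in both ages, although the median of juvenile replicate 3 was 0.06. Whether a batch or order was shared was not tested. With the replicate block 0 of the 8 immediate early genes were called, beside 0.663% of all genes. With library totals only the median log2 fold change of all genes moved to -0.18, and 677 genes were called, 197 higher in juvenile and 480 in adult mice, beside 267 and 253.

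The number of immediate early genes called was 0, and it was 2 with DESeq2 (Fos and Fosl2), 1 with limma voom, 1 with library totals only and 1 with at least 10 counts in every library, each time Fosl2, beside 3.43%, 5.05% and 6.57% of all genes under the same settings; with 1 library left out it ran from 0 to 1 (Fosl2 without juvenile replicate 1, beside 2.83% of all genes). The cause was not tested. Fos and Fosl2 were lower in juvenile mice and Jund higher under every setting run, with log2 fold changes of -2.31 to -1.44, -1.39 to -0.86 and 0.32 to 0.57. The log2 fold change of Junb was 0.057 in the Xist-rich libraries, and that of Egr1 ran from -0.34 to 0.97 with 1 library left out. Gab1 had 0.20 and Slc25a40 0.0052 in the Xist-rich libraries, and they ran from -0.29 to 0.14 and from -0.68 to 0.064 with 1 library left out.

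The r of Fos with Jun was 0.215 without centring by age and ran from -0.31 to 0.256 with 1 library left out; with Jund the range was -0.79 to 0.183. With Atf3 it was -0.033 at a prior count of 5, -0.19 without centring and -0.22 to 0.617 with 1 library left out. Without the 2 libraries of most distant Fos, r was -0.12 with Junb and -0.023 with Ier2. For Junb and Ier2, whose alternatives were chosen after seeing the data, r was 0.753 without centring (adjusted p = 0.0757 by exact permutation), 0.946 without 2 libraries (adjusted p = 0.703 by exact permutation) and 0.824 to 0.955 with 1 library left out, where fewer arrangements exist and the lowest adjusted p was 0.0625 by exact permutation.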

Other observations

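The ratio of Fosl2 to Jund counts within a library needs no scaling between libraries. It was chosen after the values were seen and has no test. It was 1.18, 0.530, 1.17, 0.587 and 0.769 in juvenile replicates 1 to 5 and 2.61, 3.25, 2.43 and 1.97 in adult replicates 1 to 4. Fosl2 counts were above Jund counts in juvenile replicates 1 and 3 and in every adult library and below them in the other juvenile libraries, and the ratios of the ages did not overlap.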
